A study of Mus musculus with 20 samples.

Results

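The surfactant protein genes are Sftpa1, Sftpb, Sftpc and Sftpd, which encode the surfactant proteins SP-A, SP-B, SP-C and SP-D. They were read in whole mouse trachea by every probe whose annotated gene name was a member (Sftpa1 is written Sftpa1 or Sftpa). This gave 4 genes with 5 probes, of 41174 probes on the array. All 5 were among the 26063 probes bright enough to be tested (well above background on at least 10 of 20 arrays), which stand for 17735 genes. Sftpa1 had 2 probes and the other genes 1 each. The genes were chosen by the difference in their signals between injured and uninjured tracheas on these same arrays, so their injury differences are given as a description, without a test.

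Pulmonary surfactant is the film of lipid and protein that lowers surface tension in the alveoli and small airways. SP-B and SP-C are small hydrophobic proteins that insert into the lipid film and help it spread. SP-A and SP-D are collectins, soluble proteins with a collagen-like stalk and a sugar-binding head that bind microbes and modulate macrophages. Alveolar type II cells make all of these proteins, and SP-A, SP-B and SP-D are also made by secretory cells of the conducting airway. SP-C is the usual marker of the alveolar type II cell.

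The 20 tracheas, each on its own 1-colour array, formed 4 groups of 5 biological replicates from mice given as 4 months old. Uninjured wild-type mice were C57/Bl6. Uninjured Myd88KO mice carried a deletion of Myd88, the adaptor of the Toll-like and interleukin-1 receptors, in all cells. Injured wild-type and injured Myd88KO mice had received 2% polidocanol, a detergent that strips the surface epithelium, in the airway 3 days before collection. By the study's methods, the Myd88KO mice had been back-crossed to C57/Bl6JOlaHsd and were bred from KO parents, whereas the wild-type mice came from a separate colony, so genotype and colony cannot be told apart. Myd88 itself was lower in injured Myd88KO than in injured wild-type tracheas by a log2 difference of -0.77 (limma adjusted p = 0.00824), but the uninjured groups differed by only -0.21 (adjusted p = 1.00), and the place of its probe relative to the deletion is not given in the sources used here. Ciliated, basal and club cell genes (Foxj1, Krt5, Scgb1a1 and the rest of those lists) were well above background on all 20 arrays, as was thyroglobulin (Tg), a product of the thyroid that lies against the trachea.

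Sftpa1, Sftpc and Sftpd lay on chromosome 14 in the coordinates of the scanner files, whose genome build is not stated. Sftpa1 probe 1 covered bases 38560683 to 38560742 and Sftpa1 probe 2 bases 38562129 to 38562188, both on an mRNA of Sftpa1. The Sftpd probe covered bases 38598705 to 38598764, 38 kb from Sftpa1 probe 1. Mbl1, a collectin of the same family whose gene lies between Sftpa1 and Sftpd in the RefSeq gene order, was well above background on 1 of 20 arrays. The Sftpc probe spanned bases 65165576 to 65165836 of chromosome 14, and the Sftpb probe spanned bases 72325120 to 72327691 of chromosome 6. Exon positions were not analysed here.

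The regions upstream of the first base of the transcript are shown for the 2 of 4 members whose windows RefSeq's table holds, because these genes are textbook targets of the lung and thyroid factor NKX2-1 and of forkhead factors. Each window runs from 250 bases before to 50 bases after the start, on the plus strand of GRCm38.p6, so these coordinates cannot be set beside the probe positions, whose build is not stated. Capitals mark matches, on either strand, to the NKX2-1 core CTCAAG, to the forkhead cores TGTTTA and TGTTTG and to the TATA box TATAAA. The C/EBP motif TTGCNNAA was searched as well.
Sftpa1, chr14:41131538-41131837: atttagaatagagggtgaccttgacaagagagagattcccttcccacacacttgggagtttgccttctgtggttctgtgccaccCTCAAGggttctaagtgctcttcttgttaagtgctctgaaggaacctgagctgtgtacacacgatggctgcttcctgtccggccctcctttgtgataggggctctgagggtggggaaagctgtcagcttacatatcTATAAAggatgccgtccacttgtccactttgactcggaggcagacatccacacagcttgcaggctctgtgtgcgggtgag
Sftpb, chr6:72304360-72304659: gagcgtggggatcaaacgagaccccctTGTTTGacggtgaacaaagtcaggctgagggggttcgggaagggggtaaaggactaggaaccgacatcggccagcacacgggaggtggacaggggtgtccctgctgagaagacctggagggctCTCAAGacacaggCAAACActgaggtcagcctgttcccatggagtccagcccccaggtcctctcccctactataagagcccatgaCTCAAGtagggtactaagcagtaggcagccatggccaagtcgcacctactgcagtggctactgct
The Sftpa1 window held 1 NKX2-1 core, whose first base lay at -166 from the start, and 1 TATA box at -30. The Sftpb window held 2 NKX2-1 cores, at -100 and -15, and 2 matches to TGTTTG, at -223 and, on the opposite strand, at -87. Neither window held TGTTTA or TTGCNNAA, and no marked match overlapped another. Of 32851 promoter windows of the same length, 15.9% held CTCAAG at least once and 1.4% at least 2 times, 18.2% held TGTTTG and 13.6% held TATAAA. Short motifs of this kind are common, and a match does not show that a factor binds there.

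Before injury, the genotype means of 4 of the 5 probes differed by less than the spread between replicates. All values are log2 signals relative to the 75th percentile of the array, so that 0 is that percentile, and levels of different probes are not set against each other. Where a list of genes is introduced by its 2 highest signals or given as a sum, these say what was detected and how arrays differ, not which gene was more abundant. Outlier spots are left out of the sums, so a sum need not cover every gene of its list on each array. Sftpa1 probe 1 read 4.05, 3.36, 2.78, 2.76 and 3.53 in wild-type replicates 1 to 5 and 3.58, 3.47, 3.40, 3.20 and 3.67 in Myd88KO replicates 1 to 5. The Sftpd probe read 6.0, 5.23, 4.62, 4.94 and 5.61 in wild-type tracheas and 5.33, 4.98, 4.99, 5.00 and 5.35 in Myd88KO tracheas. At Sftpa1 probe 1 and Sftpd the wild-type values spread more widely and enclosed the Myd88KO values. Sftpc read 0.65, 0.24, -0.85, 0.06 and 0.11 in wild-type and 0.16, -0.14, -0.10, -0.07 and 0.18 in Myd88KO, and again the groups overlapped. Sftpa1 probe 2 lay between -2.09 and -1.38 in wild-type and between -2.09 and -1.49 in Myd88KO. SP-C transcript was thus measured well above background in all 10 uninjured tracheas.

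Sftpb was the exception among the uninjured groups. It read -3.88, -4.95, -4.18, -3.64 and -4.15 in wild-type replicates 1 to 5 and -3.04, -3.50, -3.02, -2.97 and -2.75 in Myd88KO replicates 1 to 5. Every Myd88KO trachea lay above every wild-type trachea, a separation in this direction that 1.71% of the tested probes showed. The means, -4.16 ± 0.49 and -3.06 ± 0.28 (SD, n = 5 each), differed by 1.1 (SE 0.37, 95% interval 0.32 to 1.89, 2.15-fold). In limma over all tested probes the unadjusted p was 0.00778 and the adjusted p 0.422, so the difference did not pass the threshold of 0.01. The Sftpb signal was faint, and wild-type replicate 2 was not well above background. Each slide held 1 array of each group, and within slides Sftpb was higher in Myd88KO on 5 of 5 slides, by 0.67 to 1.45. Without injured Myd88KO replicate 5, an array outside this comparison that enters the shared estimate of the spread, the same difference had an SE of 0.20 and an adjusted p of 0.00677. With normexp background correction the difference was 0.42 (adjusted p = 1.00).

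**Figure D1:**
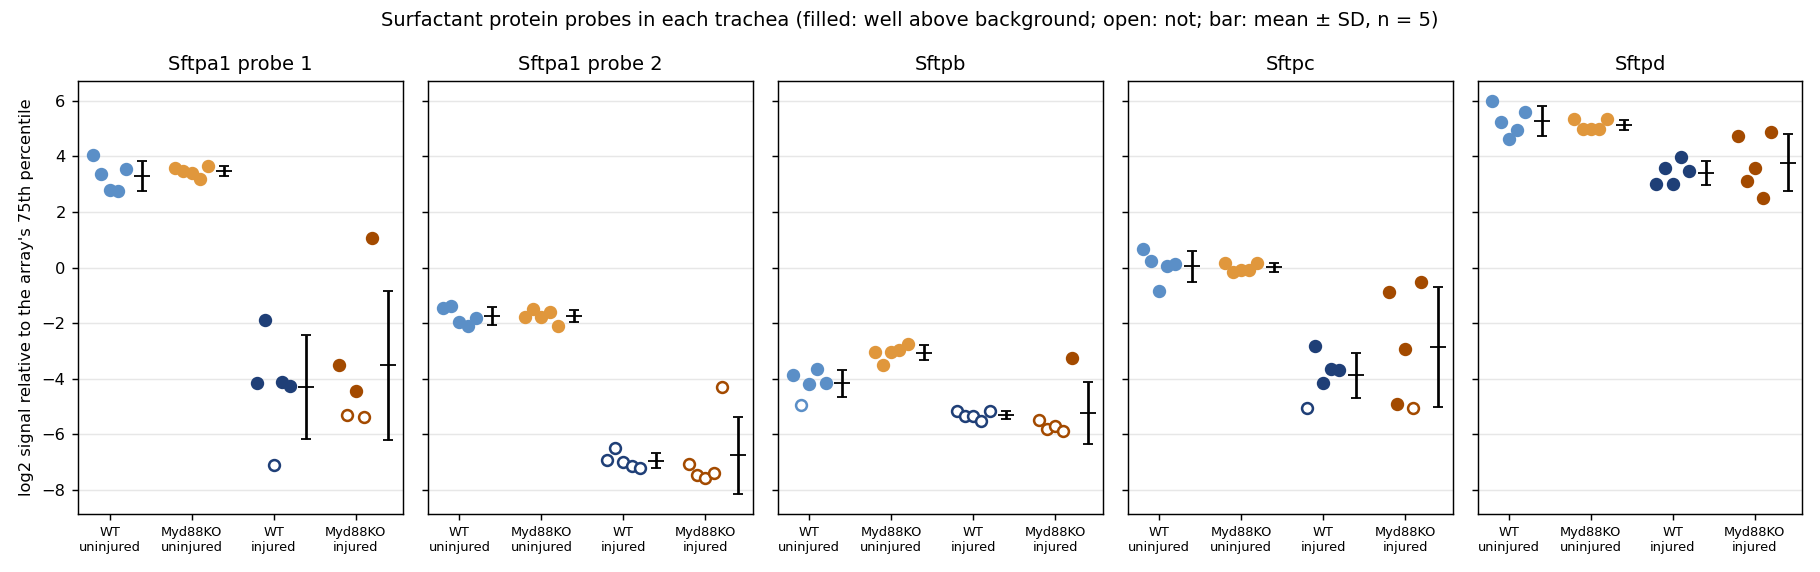
The log2 signal of each surfactant protein probe relative to the array's 75th percentile (vertical axis) in the 4 groups of 5 tracheas, in replicate order from left to right within a group; filled points were well above background, open points were not, and bars are the mean ± SD. Every injured wild-type point lies below every uninjured wild-type point at all 5 probes, and injured Myd88KO replicate 5 lies highest of its group at all 5; levels in different panels are not comparable.

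None of the 5 probes passed the test for genotype in the uninjured tracheas, beside 0.384% of all tested probes that did. By an unadjusted p under 0.05 the count was 1 (Sftpb), and by the one-way test of the study's methods it was 0 after adjustment and 1 before. The differences at the other 4 probes were 0.17 (95% interval -1.86 to 2.19) for Sftpa1 probe 1, -0.005 (-0.92 to 0.91) for Sftpa1 probe 2, -0.04 (-1.49 to 1.42) for Sftpc and -0.15 (-0.93 to 0.63) for Sftpd. Their adjusted p was 1.00 in each case. The intervals are wide, since the 4 groups share one estimate of the spread to which the injured tracheas contribute most.

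At 3 days after polidocanol, all 4 genes read lower in wild-type tracheas. Sftpa1 probe 1 read -4.14, -1.89, -7.11, -4.10 and -4.25 in injured wild-type replicates 1 to 5, a mean of -4.30 ± 1.85 (SD, n = 5) against 3.30 ± 0.54 uninjured. The log2 difference was -7.59 (SE 0.96), a mean that includes 1 injured array, replicate 3, not well above background. Without that array the difference was -6.89, and without replicate 2 it was -8.19. Probe 2 of the same gene read -6.92, -6.48, -6.98, -7.12 and -7.20 and was not well above background on any injured array, so the gene is at least 9.52-fold lower by this probe. With normexp background correction, which adds an offset to every signal, the difference at this probe was -2.03, smaller than that bound. SP-A, the most abundant protein of alveolar surfactant, is the collectin that coats many bacteria and viruses.

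SP-D, the other collectin, was lower by less. Sftpd read 2.99, 3.58, 3.00, 3.98 and 3.48 in injured wild-type tracheas, well above background on every array. Its mean of 3.40 ± 0.42 against 5.28 ± 0.54 (SD, n = 5 each) gave a difference of -1.87 (SE 0.37), 3.67-fold lower. Sftpc read -5.04, -2.83, -4.15, -3.65 and -3.69, a difference of -3.91 (SE 0.69) from the uninjured mean of 0.04 ± 0.55, or 15.1-fold lower. Injured wild-type replicate 1 was not well above background for Sftpc. Sftpb read between -5.51 and -5.15 and was not well above background on any injured wild-type array, so that its difference of -1.13 (SE 0.37) is given as at least 1.78-fold lower, whereas with normexp background correction it was -0.37, smaller than that bound.

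The injured and uninjured wild-type tracheas did not overlap at any of the 5 probes. Over all tested probes, 4.68% were lower in this way and 2.03% passed the limma test in the lower direction. Because these arrays chose the genes, nothing is read from that comparison. In RNA of whole tissue, fewer cells that express a gene and less RNA per cell cannot be told apart.

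In Myd88KO tracheas the same genes read lower after injury, but the 5 injured tracheas were less alike. Sftpa1 probe 1 read -3.50, -5.31, -4.45, -5.39 and 1.06 in injured replicates 1 to 5 against 3.46 ± 0.18 uninjured, a difference of -6.98 (SE 0.96) that includes replicates 2 and 4, which were not well above background. Sftpa1 probe 2 read -7.08, -7.45, -7.57, -7.39 and -4.28 and was not well above background on any of these arrays, which gives at least 9.69-fold (-2.13 with normexp background correction, smaller than that bound). Sftpb read -5.50, -5.79, -5.69, -5.87 and -3.25, with a difference of -2.16 (SE 0.37). Replicate 5 was the only injured array of either genotype with Sftpb well above background, and there it lay within the range of the uninjured Myd88KO tracheas. That array decided whether the groups overlapped.

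Sftpc and Sftpd showed a second uneven trachea. Sftpc read -0.87, -4.91, -2.93, -5.05 and -0.52 in injured Myd88KO replicates 1 to 5, a mean of -2.85 ± 2.15 (SD, n = 5) and a difference of -2.86 (SE 0.69) from the uninjured mean, 7.26-fold lower, with replicate 4 not well above background. Sftpd read 4.73, 3.11, 3.59, 2.52 and 4.88, a mean of 3.77 ± 1.02 and a difference of -1.36 (SE 0.37), 2.57-fold lower. In replicates 1 and 5, Sftpd differed from the uninjured mean by -0.40 and -0.25 and Sftpc by -0.87 and -0.53, the smallest gaps of the 5 tracheas. The collectin Sftpa1 did not follow in replicate 1: probe 1 was still lower there, by a log2 difference of -6.96, while in replicate 5 it was at -2.40. Sftpb likewise was at -2.44 in replicate 1 and -0.20 in replicate 5.

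**Figure D2:**
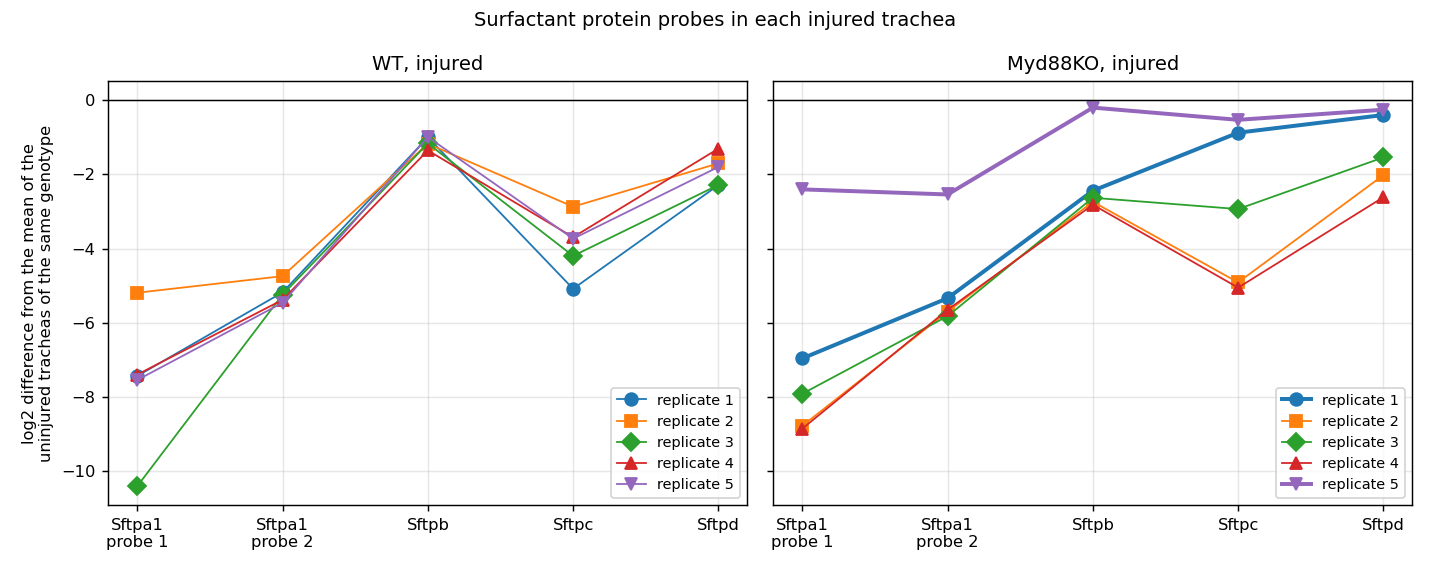
The log2 difference of each injured trachea from the mean of the uninjured tracheas of its genotype (vertical axis) at the 5 surfactant protein probes (horizontal axis), 1 line a trachea, wild-type left and Myd88KO right. Myd88KO replicate 5 lies between -2.54 and -0.20 at every probe, and replicate 1 joins it at Sftpc and Sftpd but lies with the other injured tracheas at Sftpa1 and Sftpb.

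Without injured Myd88KO replicate 5, the Myd88KO differences were -8.13 (SE 0.66) for Sftpa1 probe 1, -5.63 (SE 0.18) for Sftpa1 probe 2, -2.65 (SE 0.21) for Sftpb, -3.44 (SE 0.63) for Sftpc and -1.64 (SE 0.35) for Sftpd. No remaining injured Myd88KO array was well above background at Sftpa1 probe 2 or Sftpb. The differences at those probes, and their small SEs, thus rest on injured signals near background and do not give the size of the fall. Groups then stood apart at all 5 probes, whereas with replicate 5 the groups overlapped at Sftpb. With the 5 arrays, 2.3% of all tested probes had the injured Myd88KO arrays all below the uninjured. In that direction 0.242% passed the limma test. No such share was computed without replicate 5, where groups stand apart more easily, so nothing is read from the separation at all 5 probes. The arrays had been scanned on 2 days, slides 2, 3 and 4 on the first and slides 1 and 5 on the second. Each day held every group. In Myd88KO, Sftpa1 probe 1 differed by -8.41 on the first day and -4.84 on the second, Sftpb by -2.62 and -1.48, Sftpc by -4.19 and -0.86, and Sftpd by -1.92 and -0.54. In wild-type the same contrasts were not smaller on the second day, with -7.34 and -7.98 for Sftpa1 probe 1, -1.13 and -1.14 for Sftpb, -3.36 and -4.75 for Sftpc and -1.41 and -2.57 for Sftpd. The second day held injured Myd88KO replicates 1 and 5, and the part of the day in these values was not tested.

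The injured genotypes were then compared with each other. No probe passed the test, beside 0.38% of all tested probes that did, and the count at an unadjusted p under 0.05 was also 0, as it was by the one-way test before and after adjustment. Myd88KO minus wild-type was 0.78 (95% interval -1.25 to 2.80) for Sftpa1 probe 1 and 0.19 (-0.73 to 1.1) for Sftpa1 probe 2. It was 0.07 (-0.71 to 0.86) for Sftpb, 1.02 (-0.44 to 2.47) for Sftpc and 0.36 (-0.42 to 1.14) for Sftpd. The limma adjusted p lay between 0.574 (Sftpc) and 0.958 (Sftpb). Differences above 0 at both Sftpa1 probes and at Sftpb depended on replicate 5. Without it they were -0.37, -0.43 and -0.42, whereas Sftpc and Sftpd stayed above 0 at 0.43 and 0.08. At Sftpa1 probe 2 no injured array was well above background, and at Sftpb only Myd88KO replicate 5 was. The differences at those probes therefore compare signals near background.

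The difference between the injury responses, Myd88KO minus wild-type, passed limma's adjusted test at 0 of the 5 probes and at 0% of all tested probes. At an unadjusted p under 0.05 the counts were 0 of 5 and 2703 of 26063, and no other tool was run for this contrast. It was 0.61 (95% interval -2.25 to 3.48) for Sftpa1 probe 1 and 0.19 (-1.11 to 1.49) for Sftpa1 probe 2. For Sftpc it was 1.06 (-1.0 to 3.11) and for Sftpd 0.51 (-0.60 to 1.62). Sftpb ran the other way at -1.03 (-2.14 to 0.08, unadjusted p = 0.0648, adjusted p = 0.507), its uninjured Myd88KO level being the higher. Without replicate 5 the Sftpb value was -1.52 (adjusted p = 0.141). The injured Sftpb signals behind that value were not well above background. No injured signal of Sftpa1 probe 2 was well above background either. Intervals of this width leave room for several-fold differences between genotypes at Sftpa1 and Sftpc.

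**Figure D3:**
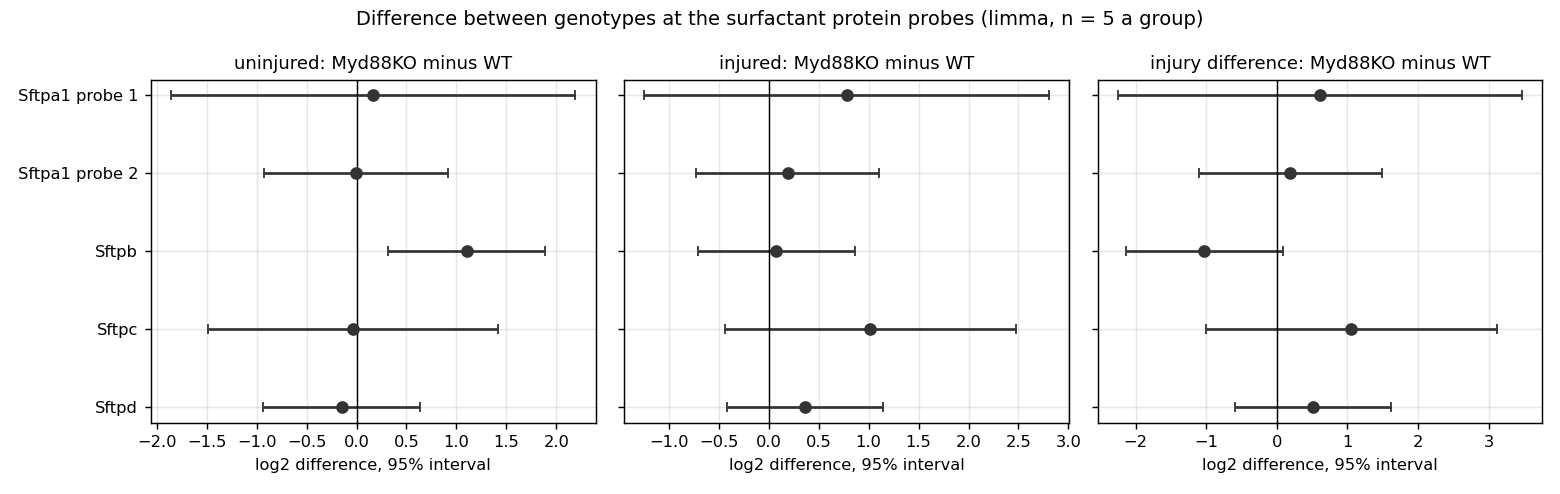
Differences between Myd88KO and wild-type at the 5 surfactant protein probes in uninjured tracheas (left), in injured tracheas (middle) and between the 2 injury differences (right); points are limma log2 differences over 5 tracheas a group and bars their 95% intervals. Of these 15 intervals, the one for Sftpb in uninjured tracheas, 0.32 to 1.89, is the only one that leaves out 0. In injured tracheas no signal of Sftpa1 probe 2, and of Sftpb only that of Myd88KO replicate 5, was well above background.

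The order of the 4 group means was the same for the collectin gene Sftpd and for Sftpc, with uninjured wild-type (5.28 and 0.04) and uninjured Myd88KO (5.13 and 0.005) above injured Myd88KO (3.77 and -2.85) and injured wild-type (3.40 and -3.87). Sftpa1 probe 1 and Sftpb had uninjured Myd88KO on top. In every case the neighbours that differ in genotype alone did not pass the adjusted test for a difference.

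Over the 10 uninjured tracheas, whose spread played no part in choosing the genes, the relations among Sftpa1, Sftpc and Sftpd depended on the probe and the scaling. With probe 1 for Sftpa1, Sftpa1 and Sftpd had Pearson's r = 0.859 and Spearman's rho = 0.842 (permutation adjusted p = 0.0116 and 0.0161, over 12 coefficients; unadjusted 0.00177 and 0.00402). Sftpc and Sftpd had r = 0.867 and rho = 0.818 (permutation adjusted p = 0.0116 and 0.0167; unadjusted 0.00194 and 0.00557). Sftpa1 and Sftpc had r = 0.745 and rho = 0.600 (permutation adjusted p = 0.0440 and 0.147). For Sftpb the 3 values of r were 0.162 with Sftpa1, 0.02 with Sftpc and -0.08 with Sftpd, and rho was 0.248, -0.09 and 0.08 (permutation adjusted p from 0.837 to 0.954 for all 6). As deviations from the mean of each genotype, r was 0.947 for Sftpa1 with Sftpd, 0.876 for Sftpc with Sftpd and 0.778 for Sftpa1 with Sftpc. Without the 2 arrays farthest from the median of the first gene, r was 0.860, 0.678 and 0.824 over 8 arrays, and none kept an adjusted p under 0.05 (permutation adjusted p = 0.107, 0.213 and 0.121), so the relations rest in part on those arrays. Spearman's rho over these 8 arrays was 0.714, 0.643 and 0.5. With quantile normalization none kept an adjusted p under 0.05 either, with r = 0.754, 0.851 and 0.748 and rho = 0.479, 0.709 and 0.479 (permutation adjusted p for r = 0.0809, 0.0564 and 0.0809). With probe 2 for Sftpa1, an alternative added after seeing the data, r was 0.315 with Sftpd and 0.356 with Sftpc, and rho 0.2 and 0.236 (permutation adjusted p from 0.815 to 0.875). The 2 probes of Sftpa1 themselves had r = 0.446 and rho = 0.139 over these arrays, so the relations of Sftpa1 are those of probe 1. The arrays share 5 slides and a common scaling, whose part was not tested.

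Across all 20 arrays, as a description, Sftpc and Sftpd were the closest pair of members (r = 0.969, and 0.906 as deviations from group means). Sftpa1 had r = 0.926 with Sftpc, 0.911 with Sftpd and 0.856 with Sftpb. The genes on the array most like Sftpa1 were Slc25a18 (r = 0.983), a mitochondrial carrier, Nr1i2 (0.974), a xenobiotic-sensing nuclear receptor, LOC546840 (0.968), Cdh26 (0.964) and Slc35d3 (0.963). By deviations from group means they were Bbox1 (0.918), an enzyme of carnitine synthesis, Slc25a18, LOC546840, Slc35d3 and Nr1i2. Most like Sftpc were Rsph14 (0.984), Vwa3b (0.984), Efcab6 (0.983), Fam166c (0.982) and TC1417206 (0.982), and by deviations Fam166c (0.958), Rsph14, Dbndd1, Hepacam2 and Spaca9. Most like Sftpd were Upb1 (0.971), Spaca9 (0.969), Vpreb3 (0.968), Arhgdig (0.966) and TC1417206 (0.965), and by deviations Upb1 (0.943), Alkbh6, Slc16a11, Echdc3 and Fhit. Sftpc and Sftpd thus shared TC1417206 in their first lists, and Spaca9 appeared for both. For Sftpb the likeness was lower, with Slc6a20a (0.929), Otos (0.920), Scml4 (0.920), Trp53bp2 (0.915) and Wnt11 (0.912), and by deviations Grik4 (0.893), Erich5, T2, AI854703 and Unc79.

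Other genes of the surfactant system were taken from lists. Of the genes for processing, lipid synthesis and export, 10 of 11 were on the array and 9 were tested, each by its brightest probe. In wild-type injury 1 of 9 was called, lower, and 0 in Myd88KO injury, where 4 had an unadjusted p under 0.05 and the one-way test called 0 after adjustment and 6 before. Over the 17735 genes tested in this way, 5.98% were called in wild-type injury and 0.445% in Myd88KO injury. The called gene was Scd1, a fatty acid desaturase of lipid synthesis, at -1.39 (SE 0.32, adjusted p = 0.00881), a call kept in 8 of 20 fits that each left out 1 array. It was lost without any one uninjured wild-type array, without uninjured Myd88KO replicate 1 or 5, without injured wild-type replicate 1, 2, 3 or 5 and without injured Myd88KO replicate 3, as well as with no filter on detection and by the one-way test. The median difference of the list was -0.04 in wild-type and -0.45 in Myd88KO, beside -0.004 and -0.09 over all genes. Among the rest of the list is Abca3, the lipid transporter of the lamellar body, in which type II cells store surfactant.

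The transcription factors of the surfactant genes did not pass the test. All 12 were tested and 0 were called in either injury contrast, with 3 at an unadjusted p under 0.05 in wild-type and 5 in Myd88KO, and the one-way test called 0 after adjustment and, before it, 2 and 4. The list holds Nkx2-1, the forkhead genes Foxa1 and Foxa2, the C/EBP genes, Gata6 and others, and its median difference was -0.14 in wild-type and -0.25 in Myd88KO. The factor whose core motif the 2 promoters hold, Nkx2-1, differed by -0.25 (SE 0.21, adjusted p = 0.492) in wild-type and -0.47 (SE 0.21, adjusted p = 0.225) in Myd88KO. Nkx2-1 is also a thyroid gene, and thyroid genes were present, with Tg at 7.62 in uninjured wild-type and Slc5a5 well above background on 7 of 20 arrays. None of 5 tested thyroid genes was called (0 and 2 at an unadjusted p under 0.05 in wild-type and Myd88KO, 0 by the one-way test after adjustment). The median difference of these genes was -0.15 in wild-type and -1.29 in Myd88KO, beside -0.004 and -0.09 over all genes. Their summed level, nearly all of it Tg, in multiples of the 75th percentile, was 94.7 to 358 in uninjured wild-type, 125 to 401 in injured wild-type, 86.6 to 475 in uninjured Myd88KO and 96.5 to 218 in injured Myd88KO tracheas. The thyroid part in the Nkx2-1 values was not tested.

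Genes of surfactant clearance and of GM-CSF signalling, through which alveolar macrophages take up and break down surfactant, were largely higher in injured wild-type tracheas. Of 8 tested genes 6 were called, all higher, beside 3.65% of all genes called higher. The others were Marco, a scavenger receptor, at 2.69 (adjusted p = 0.0169), and Pparg, a nuclear receptor, at -0.26 (adjusted p = 0.661). They included Msr1, a macrophage scavenger receptor, at 3.93 (SE 0.71, adjusted p = 0.00166), and Csf2rb, the shared beta chain of the GM-CSF receptor, at 2.91 (SE 0.50, adjusted p = 0.00120). Csf2rb2, a close copy of Csf2rb whose probe may read both, was at 2.78 (SE 0.49, adjusted p = 0.00142), and Abcg1, a lipid exporter, at 1.45 (SE 0.32, adjusted p = 0.00534). The count was 3 without uninjured wild-type replicate 2, injured wild-type replicate 1 or injured wild-type replicate 2. Msr1, Csf2rb and Csf2rb2 were called in all 20 fits that left out 1 array, whereas Abcg1 was called in 13 and lost without uninjured wild-type replicate 1, 2, 4 or 5 or injured wild-type replicate 1, 2 or 5. Abcg1 was also lost with the compared groups alone and by the one-way test (highest adjusted p of any alternative = 0.0621).

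In Myd88KO injury 0 of the 8 clearance genes were called by limma, with 6 at an unadjusted p under 0.05, and the one-way test called 0 after adjustment and 1 before. The difference between the genotypes' responses was not called for any of them either, with 5 at an unadjusted p under 0.05, so a difference in response is not shown. The list's median difference was 2.07 in wild-type and 0.94 in Myd88KO. The alveolar macrophage list, with Chil3 at -0.37 and Mrc1 at -0.45 in uninjured wild-type, had 3 of 4 tested genes called higher in wild-type injury, Chil3 by 4.68 (adjusted p = 0.00120), Cd68 by 3.27 (adjusted p = 0.000907) and Itgax by 1.58 (adjusted p = 0.00617). Itgax was lost without any one uninjured wild-type array, without injured wild-type replicate 1, 2 or 5, and by the one-way test (highest adjusted p of any alternative = 0.0209). In Myd88KO injury, where 0.152% of all genes were called higher, 1 of 4 was called, Chil3 by 4.46 (adjusted p = 0.00829), and this call held in 5 of 20 fits that left out 1 array, those without uninjured wild-type replicate 3, injured wild-type replicate 1, 3 or 4 or injured Myd88KO replicate 5. It was lost with no filter on detection, with the compared groups alone and by the one-way test (highest adjusted p of any alternative = 0.159). The list's summed level was 1.99 to 3.16 in uninjured and 9.38 to 79.7 in injured wild-type, 1.77 to 5.86 in uninjured and 6.27 to 109 in injured Myd88KO tracheas. Siglecf, which marks alveolar macrophages and eosinophils, was well above background on 7 of 20 arrays, all of them injured. The part of such cells in the clearance genes was not tested.

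Of the receptors that bind SP-A and SP-D, 1 of 8 was called in wild-type injury, higher, and 0 in Myd88KO (0 at an unadjusted p under 0.05, and 0 by the one-way test before and after adjustment). It was Sirpa, an inhibitory receptor of macrophages and other cells, at 1.53 (SE 0.24, adjusted p = 0.000692). Among the other collectins and ficolins 3 of 7 were bright enough to be tested and 0 were called by limma or by the one-way test after adjustment, with 1 at an unadjusted p under 0.05 by limma in each injury contrast. Mbl2 and Fcnb were well above background on 0 of 20 arrays, Mbl1 on 1 and Colec10 on 2. Sftpd, for comparison, was well above background on 20 arrays and Sftpa1 probe 1 on 17. Of the 40 tested genes of these 5 lists, 0 were called by limma for genotype in uninjured or in injured tracheas, beside 0.338% of all genes in each contrast. At an unadjusted p under 0.05 the counts were 8 and 12, and the one-way test gave 0 after adjustment in both and 9 and 5 before it.

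Marker lists show which cell type genes were detected in the same tracheas. Which cells supply the members was not tested. The alveolar type II list without the surfactant genes had 7 of 7 genes tested and 0 called in either injury contrast (3 at an unadjusted p under 0.05 in each, and 0 by the one-way test after adjustment). Its median difference was -0.36 in wild-type and -0.57 in Myd88KO. In uninjured wild-type Lyz1, a lysozyme also made by glands, was at 8.54, and Lamp3 at -0.58. The summed level, nearly all of it Lyz1, was 295 to 529 in uninjured and 312 to 481 in injured wild-type, and 271 to 474 in uninjured and 268 to 451 in injured Myd88KO tracheas. Slc34a2, a phosphate transporter of type II cells, was well above background on 18 arrays but faint, at -3.97 in uninjured wild-type. Some other genes of the list lay between -3.85 and -3.31 there. The fall that such faint genes could show was limited, and so is the reading of the list's median. Alveolar type I genes, with Aqp5 at 6.80 and Emp2 at 4.06 in uninjured wild-type, had 8 of 8 tested and 0 called in both contrasts (3 and 1 at an unadjusted p under 0.05, 0 by the one-way test after adjustment). Their median differences were 0.14 and -0.01. The sum, most of it Aqp5, was 125 to 183 in uninjured and 128 to 208 in injured wild-type. In Myd88KO it was 150 to 242 in uninjured and 151 to 215 in injured tracheas.

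Of 7 club cell genes, 3 were called in wild-type injury, all lower, beside 2.32% of all genes: Scgb1a1, the main club cell secretory protein, at -7.91 (SE 0.69, adjusted p = 1.05e-05), Scgb3a2, a related secretoglobin, at -5.77 (SE 0.83, adjusted p = 0.000394), and Aldh1a1, an aldehyde dehydrogenase, at -2.06 (adjusted p = 0.00708). Aldh1a1 was lost without uninjured wild-type replicate 1, 2, 3 or 4, uninjured Myd88KO replicate 4 or injured wild-type replicate 1 or 5, and with no filter on detection, with the compared groups alone and by the one-way test (highest adjusted p of any alternative = 0.0740). Its wild-type difference is over 4 injured arrays, since an outlier spot was left out. The other 4, Scgb3a1, Cbr2, Cyp2f2 and Cldn10, lay between -0.65 and -0.11 (adjusted p from 0.0933 to 0.808). The median difference of the 7 was -0.65 in wild-type and -0.86 in Myd88KO, and the part of club cells in the members' differences was not tested. In Myd88KO injury, where 0.293% of all genes were called lower, Scgb1a1 was called at -6.24 (SE 0.73, adjusted p = 0.000690), a mean over 4 injured arrays because the spot of replicate 5 was an outlier and was left out. Scgb3a2 was at -3.37 there (adjusted p = 0.0326). In uninjured wild-type Scgb3a2 was at 9.23 and Cbr2 at 9.16, and the sum of the list was 1800 to 3066 in uninjured and 760 to 1406 in injured wild-type, and 1857 to 2893 in uninjured and 948 to 2372 in injured Myd88KO tracheas. These sums leave out the outlier spots, among them Scgb1a1 in injured Myd88KO replicate 5 (the 2372) and Cbr2 on an injured wild-type array. The ends of the ranges are therefore not sums over the same genes. In the 5 injured Myd88KO tracheas Scgb3a2 read 7.94, 3.07, 5.52, 3.21 and 9.10, so replicates 1 and 5 were highest here as they were for Sftpc and Sftpd. Bpifa1, an antimicrobial secretion of the upper airway, was called lower in both genotypes, at -2.24 (adjusted p = 0.000372) and -2.36 (adjusted p = 0.00287), as 1 of 4 gland and surface genes, of which Ltf was at 8.90 and Bpifa1 at 8.85 in uninjured wild-type. That list summed to 938 to 1533 in uninjured and 509 to 821 in injured wild-type, and to 921 to 1567 in uninjured and 591 to 869 in injured Myd88KO tracheas. The Myd88KO difference of Bpifa1, like that of Scgb1a1, is over 4 injured arrays, since an outlier spot was left out, from the sums as well. The Myd88KO call of Bpifa1 was lost without uninjured Myd88KO replicate 3 or injured Myd88KO replicate 2, 3 or 4, and with outlier spots kept, with the compared groups alone and by the one-way test neither Scgb1a1 nor Bpifa1 was called in Myd88KO (highest adjusted p = 0.135).

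Ciliated cell genes, with Tekt1 at 3.67 and Foxj1 at 3.01 in uninjured wild-type, were uneven among the injured tracheas. None of 6 was called in either contrast, with 3 in wild-type and 1 in Myd88KO at an unadjusted p under 0.05, and the one-way test called 1 in wild-type and 0 in Myd88KO after adjustment. The list's median difference was -1.46 in wild-type and -0.77 in Myd88KO. The summed level of the list was 3.24, 30.6, 25.5, 50.1 and 4.63 in injured wild-type and 137, 9.95, 29.3, 3.29 and 41.0 in injured Myd88KO replicates 1 to 5, against 19.2 to 50.6 in uninjured wild-type and 27.2 to 36.8 in uninjured Myd88KO tracheas. In Myd88KO the order of the 5 sums differed from that of Sftpc and Sftpd only in the places of replicates 1 and 5, which were the highest for each. In wild-type, the ciliated sums of injured replicates 2, 3 and 4 lay within the uninjured range, with Sftpc at -2.83, -4.15 and -3.65, and those of replicates 1 and 5 lay below it, with Sftpc at -5.04 and -3.69. Basal cell genes, with Krt15 at 7.03 and Krt5 at 6.09 in uninjured wild-type, had 0 of 5 called (1 at an unadjusted p under 0.05 in each contrast, 0 by the one-way test after adjustment), and their sum was 150 to 474 in uninjured and 162 to 438 in injured wild-type and 167 to 251 in uninjured and 225 to 448 in injured Myd88KO tracheas. The part of ciliated cells in the members' differences was not tested.

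**Figure D4:**
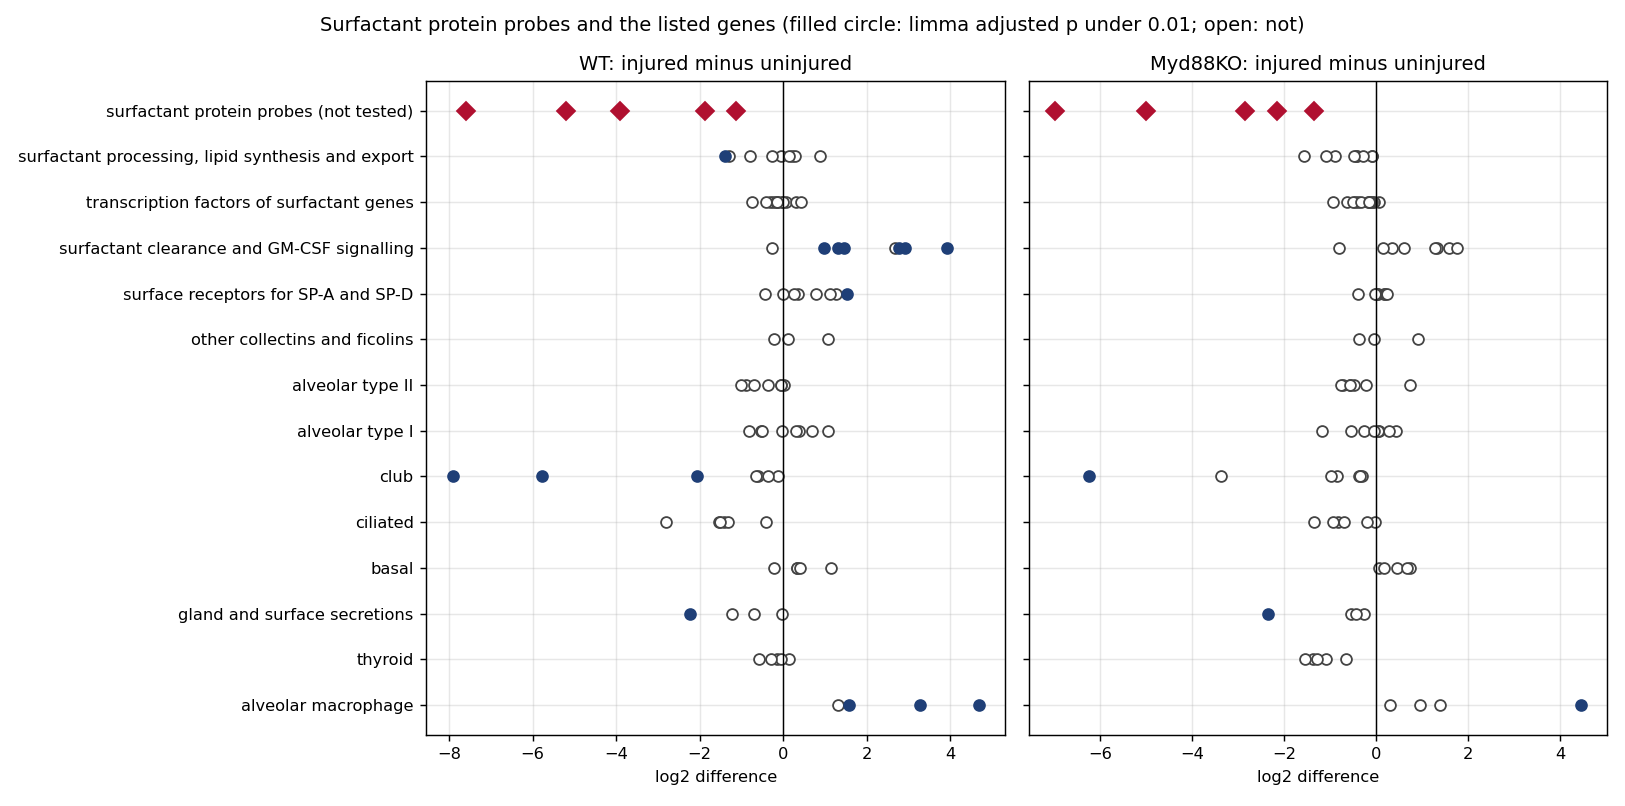
Log2 difference between injured and uninjured tracheas (horizontal axes, wild-type left, Myd88KO right) for the 5 surfactant protein probes (diamonds, not tested) and for each tested gene of 13 lists by its brightest probe (circles, filled where limma's adjusted p was under 0.01). The surfactant protein probes lie at -7.59 to -1.13 in wild-type, the 7 club cell genes at -7.91 to -0.11 (median -0.65) and the 7 alveolar type II genes at -1.02 to 0.02 (median -0.36). Some of the type II genes were faint before injury, which limits the fall they could show.

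**Figure D5:**
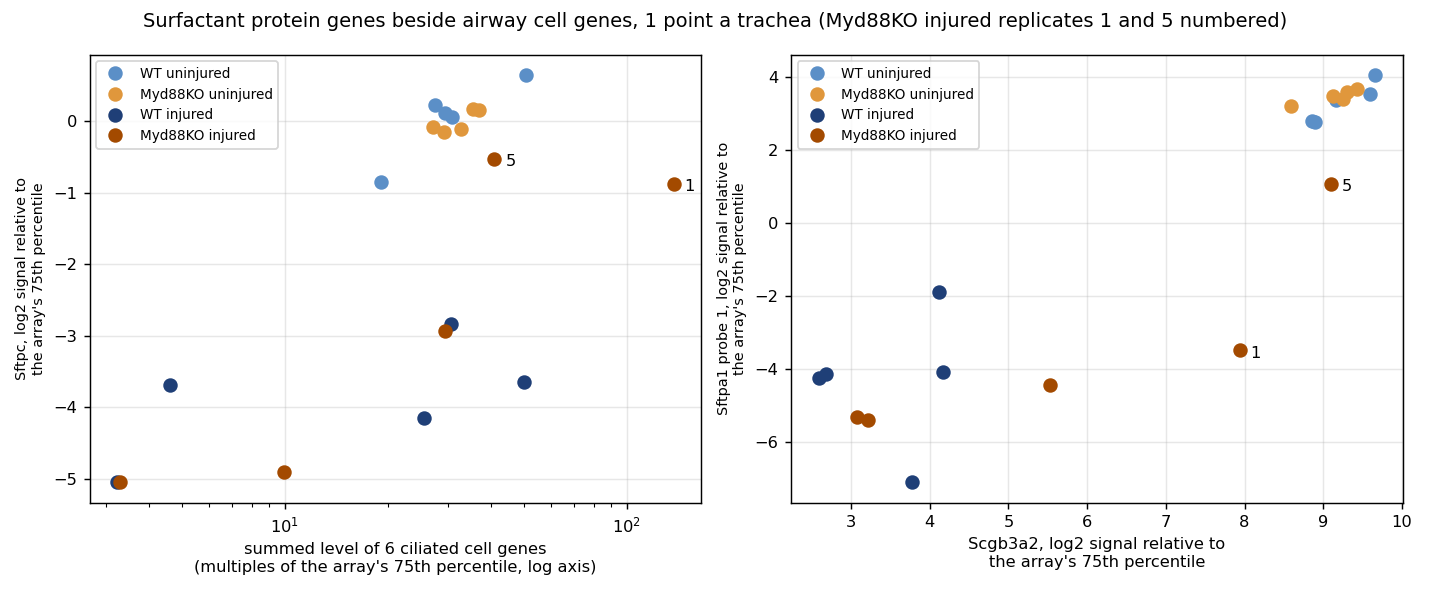
Left, Sftpc (vertical axis) against the summed level of 6 ciliated cell genes (horizontal log axis); right, Sftpa1 probe 1 against Scgb3a2; 1 point a trachea, log2 signals relative to the array's 75th percentile, with injured Myd88KO replicates 1 and 5 numbered. Replicate 1 had a ciliated sum of 137 (27.2 to 36.8 in uninjured Myd88KO) with Sftpc at -0.87, and a Scgb3a2 of 7.94 (8.59 to 9.43 in uninjured Myd88KO) with Sftpa1 at -3.50, and replicate 5 lies nearest to the uninjured tracheas in both plots.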

How the data were processed

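Total RNA of 20 whole tracheas was labelled with Cy3 and hybridised to 1-colour Agilent mouse arrays. Per the file headers, Agilent Feature Extraction 9.5.1.1 subtracted background and removed spatial trends, and the deposited values are spot intensities, not scaled between arrays; spots not above background hold a substitute value. From these, log2(processed signal) minus each array's 75th percentile was computed, control and outlier spots were left out (1960 probe values) and spots of a probe were averaged. The authors' value table, with intensity ratios of 0.995 to 1.00 to the scanner values on each array, served as an alternative. Older array names were updated through RefSeq.

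Groups came from sample titles. All 20 arrays were fitted in limma 3.58.1 (R 4.3.3) over 26063 probes well above background on at least 10 arrays, with Benjamini-Hochberg adjustment within each contrast and a threshold of 0.01. Where no array of the dimmer group was well above background, the bound "at least N-fold" sets the brighter group's mean against the higher of the probe's value and the lowest signal well above background on each array. At the limit of this filter, Sftpa1 probe 2 passed through the 10 uninjured arrays, and Sftpb through 9 uninjured arrays and injured Myd88KO replicate 5. Correlations used 100000 permutations. Well above background were 57.5% to 67.8% of probes an array, 1 spot was saturated, and replicates correlated at 0.925 to 0.990; the number of arrays limits the precision. The test was checked on simulated data.

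The members and lists were chosen with earlier results of these data known. Named were all member probes, the 5 genes most like each member by each measure, called pathway genes up to the 4 largest a list, and the brightest 2 and the undetected markers (1 marker is not reported here); Nkx2-1, Abca3, Slc34a2 and the called markers beyond that rule were chosen after their values were seen. Alternatives were normexp background correction (offset 50), quantile normalization, no filter, slide or scan day as block, groups compared alone, array weights, the value table, outlier spots kept, the one-way test of the methods, and leaving out each array; Sftpa1 probe 2 in place of probe 1 in the correlations was added after seeing the data.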

Additional observations from a re-analysis of the deposited data

Results flagged for a closer look

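In the 20 sets of 5 arrays tested (5 probes in 4 groups), 2 held an array far from the other 4 by Dixon's criterion of 0.71, and chance sets off about 1 in 20 such sets. Both were injured Myd88KO replicate 5. At Sftpa1 probe 2 it read -4.28 where the next highest array read -7.08, so that the gap was 0.853 of the range. At Sftpb it read -3.25 where the next read -5.50, a gap of 0.856 of the range. In both sets the other 4 arrays were not well above background, nor was replicate 5 at Sftpa1 probe 2. The spread there is that of signals near background, so the rate of 1 in 20 need not hold. Injured Myd88KO replicate 5 was also the highest of its group at the other 3 surfactant protein probes, and the report gives the injury differences with and without it.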

How the results depend on the processing

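The count of the 5 probes called for genotype in uninjured tracheas, for genotype in injured tracheas and for the difference of responses stayed 0 under every alternative run, except that Sftpb was called in uninjured tracheas without injured Myd88KO replicate 5. Leaving out 1 array, the counts ran from 0 to 1, 0 to 0 and 0 to 0. The injury differences kept their sign under every alternative run. Normexp correction with its offset, which shrinks faint signals, moved 6 of 10 by more than the spread between replicates: in wild-type Sftpa1 probe 1 to -5.81, Sftpa1 probe 2 to -2.03, Sftpb to -0.37 and Sftpc to -2.59, and in Myd88KO Sftpa1 probe 2 to -2.13 and Sftpb to -0.83. Leaving out 1 array, they ran in wild-type from -8.19 to -6.89, -5.32 to -5.11, -1.33 to -1.01, -4.18 to -3.62 and -2.04 to -1.69, and in Myd88KO from -8.13 to -6.51, -5.63 to -4.81, -2.65 to -2.0, -3.44 to -2.31 and -1.64 to -1.05, in the order Sftpa1 probe 1, probe 2, Sftpb, Sftpc, Sftpd.

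Replicate numbers are slides. Same-slide arrays deviated together (r over 0.1) in 16 of 20 pairs (-0.219 to 0.476), not in all, so the replicate block is an alternative; with it Sftpb in uninjured tracheas had an adjusted p of 0.238 and no member's call changed, whereas Scd1, Abcg1, Itgax and Aldh1a1 in wild-type and Chil3 in Myd88KO were no longer called (adjusted p from 0.0109 to 0.0152). The correlations of Sftpa1 with Sftpd, Sftpc with Sftpd and Sftpa1 with Sftpc fell short of an adjusted p of 0.05 without the 2 far arrays (r = 0.860, 0.678 and 0.824) and with quantile normalization (r = 0.754, 0.851 and 0.748), and those of Sftpa1 with probe 2 (r = 0.315 with Sftpd, 0.356 with Sftpc and -0.37 with Sftpb); the cause was not tested. Over the 40 tested surfactant-system genes outside the members, 8 were called in wild-type injury, 13 with array weights, 5 by the one-way test and 4 to 10 leaving out 1 array; in Myd88KO injury 0 were called, 8 with array weights and 2 with outlier spots kept. Over the marker genes the counts were 7 in wild-type (12 with array weights, 5 to 11 leaving out 1 array) and 3 in Myd88KO (6 with array weights, 1 with outlier spots kept, 0 with the compared groups alone or the one-way test, 1 to 4 leaving out 1 array).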
